A study of Homo sapiens with 9 samples.

Results

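The LINC RNAs are long intergenic noncoding RNAs that carry only a serial number in place of a descriptive name. They were chosen by name and by level from the deposited gene table: every gene whose symbol is LINC followed by digits and whose mean over the 9 libraries was at least 0.1 FPKM (fragments per kilobase of exon, scaled to sequencing depth), leaving out LINC00885, the RNA that was targeted. That rule kept 356 of the 60605 genes in the table, and 356 of the 2138 LINC entries. Another 1162 LINC entries had no count in any library. The 356 entries carry 355 distinct symbols, since LINC01605 stands under 2 gene identifiers. Because the level selected them, levels are given below as a description.

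The libraries came from TE13, an established human esophageal squamous cell carcinoma (ESCC) line, after transfection with a control siRNA, with PARylator siRNA.1 or with PARylator siRNA.2, in 3 libraries each. PARylator is the study's name for LINC00885, a long noncoding RNA from distal chromosome 3q. Poly(A)+ RNA was sequenced, so transcripts without a poly(A) tail were not sampled; the time between transfection and harvest is not given in the sources used here. The comparisons ask how the cells' RNA changes when PARylator is targeted, and whether both siRNAs do the same; all 9 libraries entered a single edgeR quasi-likelihood fit, and "rose", "fell" and "changed" below mean an adjusted p under 0.05 (Benjamini-Hochberg) in that fit over 21397 genes.

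Long noncoding RNAs are transcribed and spliced like messenger RNAs but are not translated into a known protein. Many are present at a few copies per cell or fewer, and many are expressed in a narrow range of cell types. Some act on the gene next to them, others act elsewhere in the nucleus or in the cytoplasm, and for most LINC entries no function is known. In squamous carcinomas, several of them are switched on by the transcription factors that hold squamous identity.

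The libraries held between 15337917 and 22559998 counts on genes. The targeted RNA itself was scarce. LINC00885 had 6, 7 and 12 counts with control siRNA, 4, 5 and 2 counts with siRNA.1, and 2, 0 and 4 counts with siRNA.2. The log2 fold change was -1.21 (SE 0.95, adjusted p = 0.376, edgeR quasi-likelihood) with siRNA.1 and -2.33 (SE 1.01, adjusted p = 0.0659, edgeR quasi-likelihood) with siRNA.2, so the counts ran in the labelled direction without passing the threshold. All 12 squamous markers looked at, among them KRT5 and TP63, were at 1 FPKM or more in every library. Their summed FPKM was 960 to 977 in the control libraries, 726 to 761 under siRNA.1 and 720 to 743 under siRNA.2. Of 8 glandular markers, KRT7, KRT8 and KRT18 were abundant, and KRT20, CDX2, VIL1, MUC2 and TFF3 were at 0 to 0.1 FPKM in every library. Mitochondrial genes took 7.46 to 7.66% of counts in the control libraries, 4.99 to 5.06% under siRNA.1 and 5.54 to 5.56% under siRNA.2. The summed FPKM of 5 leukocyte markers was 0.47 to 0.84 in the control libraries, 3.56 to 3.95 under siRNA.1 and 3.49 to 4.06 under siRNA.2, most of it LYZ, while CD3E was at or near 0 throughout. The part of any of these shifts in the results below was not tested.

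Several genes that rose with both siRNAs hold a searched motif in their promoter windows, LINC00623 and LINC01010 among them. The promoters of 3 more such genes are shown first, picked as examples. They are RefSeq windows of 300 bases, 250 before and 50 after the start, on GRCh38.p14. Capitals mark matches, on either strand, to GAAANNGAA, which is 9 letters of the interferon-stimulated response element, or to TGANTCA, the AP-1 motif.
LINC00702 (chr10:4243863-4244162, minus strand): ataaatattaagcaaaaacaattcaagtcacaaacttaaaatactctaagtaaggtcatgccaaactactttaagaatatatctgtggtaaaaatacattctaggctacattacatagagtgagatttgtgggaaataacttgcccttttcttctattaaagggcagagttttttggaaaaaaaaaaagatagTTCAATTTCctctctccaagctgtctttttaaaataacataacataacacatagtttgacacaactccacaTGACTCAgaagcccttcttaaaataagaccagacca
LINC00973 (chr3:98980805-98981104, plus strand): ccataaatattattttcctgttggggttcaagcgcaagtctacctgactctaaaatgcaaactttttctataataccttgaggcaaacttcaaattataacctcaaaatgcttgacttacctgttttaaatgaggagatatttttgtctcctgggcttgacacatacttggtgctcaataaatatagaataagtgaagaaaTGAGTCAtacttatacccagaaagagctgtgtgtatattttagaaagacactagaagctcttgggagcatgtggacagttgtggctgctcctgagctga
LINC02574 (chr1:27662673-27662972, minus strand): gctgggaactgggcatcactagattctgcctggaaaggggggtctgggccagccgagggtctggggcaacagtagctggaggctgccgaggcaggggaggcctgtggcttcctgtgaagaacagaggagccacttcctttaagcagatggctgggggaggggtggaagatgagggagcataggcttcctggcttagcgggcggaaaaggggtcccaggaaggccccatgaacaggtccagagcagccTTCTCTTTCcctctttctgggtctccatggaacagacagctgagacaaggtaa
The RefSeq start of LINC00702 coincided with the deposited start, the nearest of 4 RefSeq starts of LINC00973, shown here, lay 3 bases upstream of it, and that of LINC02574 lay 3557 bases inside the deposited gene.

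Most LINC RNAs were scarce. The median member had a mean of 0.352 FPKM and 13.1 counts, against 1.81 FPKM and 127 counts over all genes tested. Of the 356, 163 had a mean under 0.3 FPKM, 118 lay from 0.3 to under 1, 59 from 1 to under 3, and 16 reached 3 FPKM or more. Counts were above 0 in every library for 263 members. Their exons covered 178 to 33198 bases, with a median of 2243. Near the selection limit, LINC01238 and LINC02742 were just inside at 0.1 FPKM, and LINC01002 and LINC01342 were just outside at 0.0989 FPKM.

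**Figure D1:**
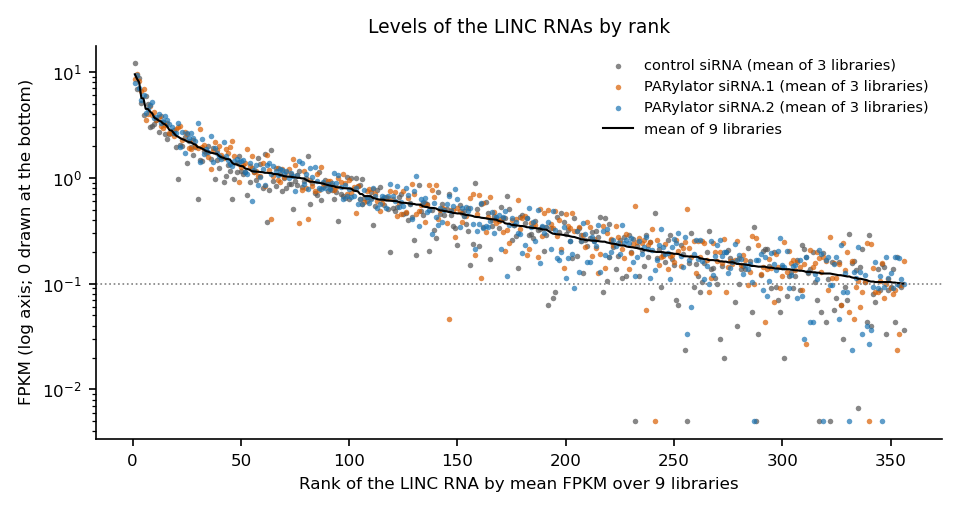
Mean FPKM (log axis) of each of the 356 LINC RNAs by rank; points are the means of 3 libraries per condition, the line is the mean of all 9, the dotted line is the selection limit of 0.1 FPKM, and means of 0 are drawn at the bottom. Levels run from 9.52 FPKM down to the limit, and the conditions scatter more widely around the line at the scarce end.

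By FPKM, which is per exon length and so can be set side by side between genes, LINC00674 stood highest at a mean of 9.52 over the 9 libraries. GENCODE 44 types it as a transcribed pseudogene. LINC00623 followed at 8.61, LINC02474 at 7.98, LINC00857 at 5.69 and LINC02577 at 5.61, and then LINC01503, LINC01605, LINC01806, LINC02041 and LINC02381 between 4.48 and 3.70. Their spreads overlapped: LINC00674 ranged from 6.28 to 12.88 FPKM over the libraries and LINC00623 from 6.42 to 11.04. Neighbours in this order are therefore not separated by more than the spread. LINC02041, whose exons span only 246 bases, had 1 count in the first control library and 20 and 17 in the others (0.27, 5.22 and 3.86 FPKM), so its level rests on few reads. LINC00623 shares 1251 aligned bases at 99.3% identity with LINC00869, and reads could be split between them.

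Of these 10, 5 changed with both siRNAs, 3 upward and 2 downward, beside 21.2% of all genes. All but LINC02041 averaged 100 counts or more. In that range, 49.2% of all genes changed with siRNA.1 and 50.3% with siRNA.2. LINC00623 rose by 0.46 and 0.44 (log2, SE 0.10 in both). LINC02577, a gene of chromosome 7, was at 3.86, 4.30 and 3.62 FPKM with control siRNA, at 7.08, 6.43 and 7.10 with siRNA.1, and at 6.52, 5.49 and 6.08 with siRNA.2. LINC01806 on chromosome 2 was at 2.80, 2.96 and 3.32 FPKM, at 5.04, 4.10 and 5.13, and at 4.93, 4.68 and 5.09. In LINC02577 and LINC01806, every siRNA library lay above every control library. LINC01503, an RNA known for its induction by a super-enhancer in squamous carcinoma, was at 5.63, 6.19 and 5.84 FPKM with control siRNA, at 3.50, 3.61 and 3.39 with siRNA.1, and at 4.17, 4.16 and 3.87 with siRNA.2. LINC00674 was at 12.88, 12.41 and 10.88 FPKM with control siRNA, at 7.21, 10.37 and 8.04 with siRNA.1, and at 9.77, 7.80 and 6.28 with siRNA.2. Both fell, with no siRNA library reaching the lowest control library. The log2 fold changes of LINC01503 were -0.78 (SE 0.11) and -0.55 (SE 0.10), and those of LINC00674 were -0.53 (SE 0.17) and -0.62 (SE 0.17). The call of LINC00674 for siRNA.1 was lost without siRNA.1 replicate 1 (adjusted p = 0.0725, edgeR) and in the limma fits. Its call for siRNA.2 was lost in limma with 0.01 and 0.1 added to FPKM (adjusted p = 0.0672 and 0.0621, limma). The siRNA.2 call of LINC00623 was lost in the same fits (adjusted p = 0.0558 and 0.0522, limma).

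Targeting PARylator was accompanied by more rises than falls among the LINC RNAs. With siRNA.1, 62 of the 356 changed, or 17.4%, against 30.2% of all genes tested. Of the 356, 46 rose (12.9%) and 16 fell (4.49%), where the background was 15.0% of all genes rising and 15.2% falling. With siRNA.2, 61 changed, or 17.1%, against a background of 30.9%. Of the 356, 44 rose (12.4%) and 17 fell (4.78%), where 15.8% of all genes rose and 15.1% fell. With both siRNAs, the share that rose lay below the background, and the share that fell lay further below it. Rises thus made up 74.2% and 72.1% of the called LINC RNAs, beside 49.7% and 51.2% of all called genes. The selection itself leans upward, because a mean over 9 libraries admits RNAs that are high only with siRNA: 52 members were under 0.1 FPKM with control siRNA, against 28 under siRNA.1 and 29 under siRNA.2. Among the 304 members at 0.1 FPKM or more with control siRNA, 39 rose and 16 fell under siRNA.1, and 38 rose and 17 fell under siRNA.2. Among the 268 at that level in every condition, the counts were 39 and 14, and 38 and 13. The median log2 fold change depended on this choice and is given as a description: it was 0.165 and 0.174 (siRNA.1, siRNA.2) over all members and 0.0402 and 0.0546 over the 304, a selection that leans the other way. In such bulk libraries, a change in the number of cells that carry an RNA and a change in its amount per cell cannot be told apart.

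Both comparisons share the 3 control libraries, so their calls are not independent. In the same direction with both siRNAs, 41 LINC RNAs (11.5%) changed, against 21.2% of all genes. Of the 356, 32 rose (8.99%, background 11.1%) and 9 fell (2.53%, background 10.2%). Of the 32, 5 were under 0.1 FPKM with control siRNA and were admitted through the siRNA libraries; without them 27 rose and 9 fell. No member changed in opposite directions, but the share of all genes that did was not counted. Falls depended on single libraries: without siRNA.1 replicate 1, 5 fell with both and 9 with siRNA.1, and with siRNA.2 the falls dropped to 10 and 11 without siRNA.2 replicate 2 and replicate 3. CPM here means counts scaled to the library total after the TMM adjustment of the fit. By CPM, 28 of the 32 that rose had all 6 siRNA libraries above all 3 control libraries. Among the 9 that fell, 8 had all 6 below. Over all members, 40 lay wholly above and 13 wholly below their controls, or 11.2% and 3.65%, beside 13.2% and 13.0% of all genes tested.

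Part of this balance goes with depth, gene class and overlap. At a mean of 100 counts or more, 21 of 44 members rose and 4 fell with siRNA.1, or 47.7% and 9.09%. In that range, the shares among other GENCODE long noncoding genes were 38.2% and 11.2%, and among protein-coding genes 23.5% and 25.9%. With siRNA.2, 22 of the 44 rose and 4 fell, beside 37.8% and 12.4% of the other long noncoding genes. Under 10 counts, 4 of 147 members rose and 1 fell with siRNA.1, and 3 rose and 4 fell with siRNA.2. Of all genes in that range, 1.04% rose and 0.769% fell with siRNA.1, and 1.19% and 1.1% with siRNA.2. Few scarce members were thus called, and the part of depth in this was not tested. The surplus of rises at high counts was thus shared with other long noncoding genes, and no difference between these classes was tested.

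The count also differed by the position of the gene. Gene bodies of 176 members overlap no other gene in the table, and those of 180 overlap at least one. Among the 176, 15 rose and 11 fell with siRNA.1, and 13 rose and 10 fell with siRNA.2, beside 16.8% and 16.0% of all tested genes without overlap (siRNA.1) and 18.3% and 16.0% (siRNA.2). Among the 180, 31 rose and 5 fell with siRNA.1, and 31 rose and 7 fell with siRNA.2. The shares among the 180 were 17.2% and 2.78% with siRNA.1, beside 14.3% and 14.9% of all overlapping genes and 6.15% and 2.84% of other overlapping long noncoding genes. For siRNA.2 they were 17.2% and 3.89%, beside 14.8% and 14.7%, and 5.9% and 2.81%. The overlapping members also had more counts, with a median mean of 18.5 against 9.94. Whether the counting used strand is not stated, so reads of an overlapping gene could be assigned to the LINC entry; of the 15 members that rose with both siRNAs and overlap a tested gene, 2 overlap one that also rose with both, and none overlaps one that fell with both. A split of reads as the source of these counts was not tested.

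**Figure D2:**
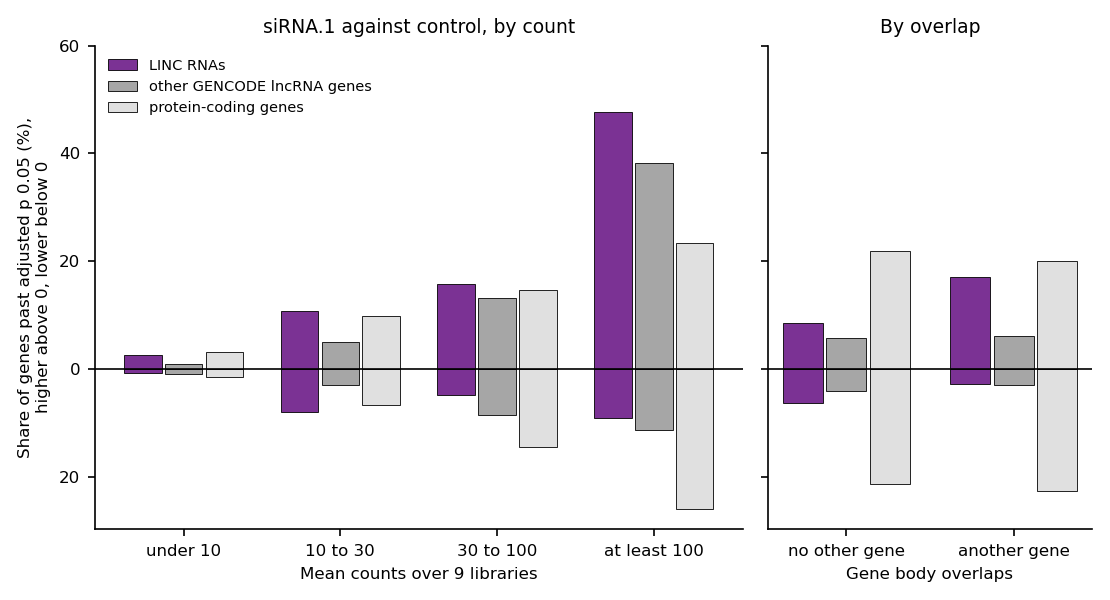
Share of genes (%) past adjusted p 0.05 with siRNA.1 against control siRNA, higher above 0 and lower below it, by mean counts over the 9 libraries (left) and by whether the gene body overlaps another gene (right). At 100 counts or more, 47.7% of LINC RNAs were higher and 9.09% lower; the excess of higher over lower is smaller for members that overlap no other gene (8.52% and 6.25%).

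The rises with both siRNAs were led by 8 LINC RNAs, by the mean of both log2 fold changes among members with at least 20 counts and all 6 siRNA libraries on one side of the 3 control libraries. They are LINC01619, LINC00702, LINC02582, LINC01127, LINC00973, LINC00707, LINC01703 and LINC02693. LINC00702 (chr10:4201141-4243912, minus strand), which overlaps no other gene, varied little within a condition: it was at 0.17, 0.20 and 0.22 FPKM with control siRNA, 0.75, 0.72 and 0.77 with siRNA.1, and 0.84, 0.88 and 0.91 with siRNA.2. On the log2 scale it rose by 1.90 (SE 0.19, adjusted p = 8.13e-23, edgeR) and by 2.15 (SE 0.18, adjusted p = 1.22e-30, edgeR). LINC00707 (chr10:6779549-6879450, plus strand), reported in several carcinomas, overlaps 4 other genes; it was at 0.29, 0.22 and 0.26 FPKM, at 0.60, 0.87 and 0.62, and at 0.80, 0.74 and 0.69. LINC00702, LINC00707 and the scarcer LINC00705 lie on the short arm of chromosome 10 and rose with both siRNAs. They are 3 of the 4 members between 4 and 7 megabases, a window drawn after the values were seen. Chromosome 10 holds 17 members. LINC00705 was named after its values were seen. It had 3, 7 and 7 counts with control siRNA, 15, 20 and 13 with siRNA.1, and 20, 23 and 21 with siRNA.2. It overlaps MANCR on the opposite strand, which had values of 0.76 and 0.56 (log2, adjusted p = 0.0148 and 0.0905, edgeR).

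LINC01127 (chr2:101962056-101987167, plus strand) starts 29904 bases before IL1R2, the gene of a decoy receptor for interleukin-1, on the same strand and without overlap. It was at 0.36, 0.47 and 0.32 FPKM with control siRNA, at 1.23, 1.56 and 2.13 with siRNA.1, and at 1.51, 1.19 and 1.26 with siRNA.2. The log2 fold changes were 2.08 (SE 0.24) and 1.78 (SE 0.24), and those of IL1R2 were 1.68 (SE 0.11) and 1.61 (SE 0.10). Both genes thus rose with both siRNAs.

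LINC02582 on chromosome 18 rose further with siRNA.2 than with siRNA.1. It was at 0.97, 0.28 and 0.65 FPKM with control siRNA, at 1.87, 2.06 and 1.81 with siRNA.1, and at 3.02, 3.57 and 3.34 with siRNA.2, 3 levels that do not overlap. LINC00973, whose promoter with an AP-1 match is printed above and whose body overlaps 1 gene on the same strand, was at 0.61, 1.60 and 0.70 FPKM, at 3.39, 2.97 and 2.74, and at 2.99, 3.57 and 3.41. It lies on chromosome 3 at chr3:98981058-98983096, apart from the 3q segment that holds LINC00885, and its nearest tested coding gene, DCBLD2, rose by 0.64 (SE 0.05) and 0.69 (SE 0.05) on the log2 scale. LINC01619 was under the level limit with control siRNA and was admitted through the siRNA libraries, so the selection favoured its rise. It was at 0.08, 0.04 and 0.10 FPKM, at 0.29, 0.26 and 0.45, and at 0.59, 0.47 and 0.39. Its gene body overlaps BTG1, an antiproliferative gene, on the same strand; BTG1 averaged 2687 counts and rose by 0.73 and 0.78 (log2), so the reads of LINC01619 are uncertain. LINC01703 was the least certain of the 8: its log2 fold change with siRNA.1 was 1.26 (SE 0.43, adjusted p = 0.0128, edgeR), and the call was lost without 3 of the libraries in turn, with adjusted p = 0.0839, 0.0558 and 0.152 (edgeR) without control replicate 1, control replicate 2 and siRNA.1 replicate 1.

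By the same rule, 6 LINC RNAs were named for falls. Besides LINC01503 and LINC00674, they are LINC01451, LINC00887, LINC01355 and LINC02893. LINC01451 (chr9:136612024-136617181, minus strand) was at 1.05, 0.58 and 1.02 FPKM with control siRNA, at 0.15, 0.23 and 0.18 with siRNA.1, and at 0.25, 0.12 and 0.27 with siRNA.2. It fell by 2.26 (SE 0.40) and by 2.03 (SE 0.38) on the log2 scale. Its 3 control libraries held 55, 31 and 62 counts, and no siRNA library held more than 21. LINC02893 was at 1.87, 1.32 and 1.80 FPKM, at 0.70, 0.71 and 1.09, and at 0.90, 0.83 and 0.81. LINC00887 was at 0.52, 0.40 and 0.34 FPKM, at 0.07, 0.24 and 0.11, and at 0.29, 0.16 and 0.11. LINC01355 had log2 fold changes of -1.06 (SE 0.37) and -1.03 (SE 0.36). For LINC00887 with siRNA.2 and LINC01355 with both, the calls did not hold in the limma fits or without single libraries: the adjusted p of LINC00887 was 0.11 without control replicate 1, 0.0601 without siRNA.2 replicate 2 and 0.135 without siRNA.2 replicate 3 (edgeR). LINC01355 lost its call for siRNA.1 without control replicate 1 or 3 or siRNA.1 replicate 1 or 2 (adjusted p = 0.0532, 0.061, 0.152 and 0.0813, edgeR). It lost that for siRNA.2 without control replicate 1 or 3 or siRNA.2 replicate 2 (adjusted p = 0.0571, 0.0647 and 0.135, edgeR).

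**Figure D3:**
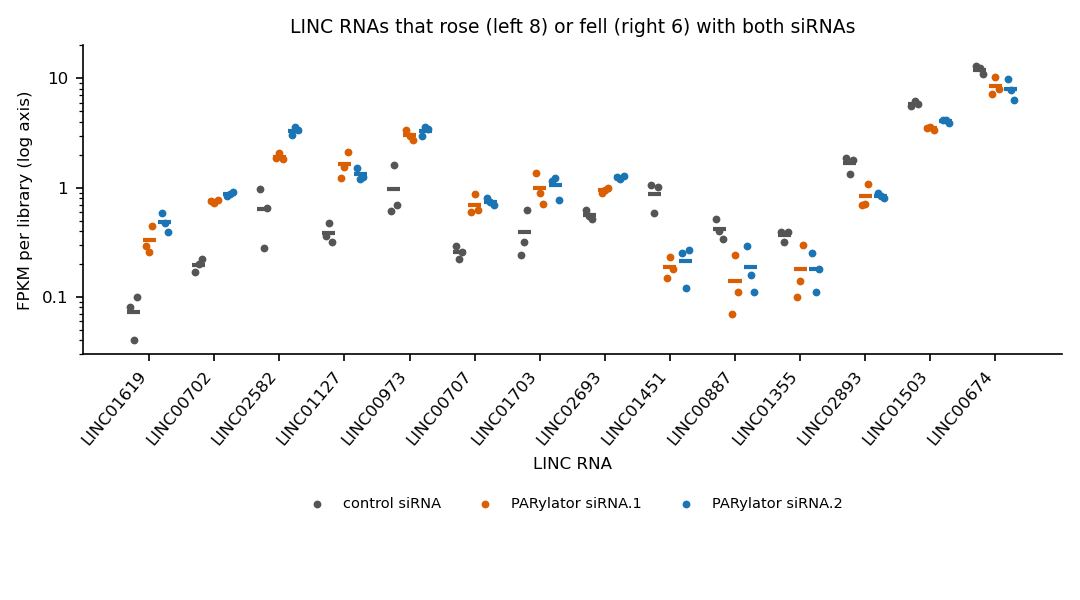
FPKM per library (log axis) of the 8 LINC RNAs that led the rises and the 6 that led the falls with both siRNAs; points are libraries, bars are means of 3. The members were chosen for having all 6 siRNA libraries on one side of the controls, and LINC01619 was admitted through the siRNA libraries. The libraries of LINC00702 lie close together and those of LINC01703 scatter.

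Scarcer LINC RNAs gave larger ratios on fewer reads. LINC01647, chosen after its values were seen, had 0 counts in all 3 control libraries, 2, 10 and 6 with siRNA.1 and 5, 2 and 7 with siRNA.2. Against a floor of 3 counts over the control group siRNA.1 gave an at least 5.79-fold higher level, and siRNA.2 an at least 3.70-fold higher one; with the counting error of the siRNA reads included, the lower 95% limits were 4.24-fold and 2.63-fold. With 0 control counts it reached the level limit only through the siRNA libraries, so a difference in this direction was fixed by the selection. LINC01010, likewise chosen later and likewise admitted through the siRNA libraries, had 0, 0 and 5 counts with control siRNA, 25, 11 and 24 with siRNA.1, and 11, 16 and 28 with siRNA.2. Its nearest coding gene is SGK1, the serum and glucocorticoid regulated kinase, which rose by 0.89 (SE 0.06) and 0.68 (SE 0.06) on the log2 scale.

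LINC02574, listed for its reported induction by interferon, lies on chromosome 1 (chr1:27660328-27666279, minus strand) beside IFI6, an interferon-induced gene. It had 0, 2 and 0 counts with control siRNA, 9, 8 and 5 with siRNA.1, and 10, 12 and 7 with siRNA.2. The ratios were 10.6 (95% counting interval 2.61 to 93.1) and 11.5 (2.91 to 99.4), with adjusted p = 0.0188 and 0.0111 (edgeR). The call with siRNA.1 was lost without control replicate 1, control replicate 3 or siRNA.1 replicate 1, with adjusted p = 0.0822, 0.0997 and 0.0532 (edgeR), and that with siRNA.2 without control replicate 1, control replicate 3 or siRNA.2 replicate 2, with adjusted p = 0.0582, 0.0715 and 0.0513 (edgeR). IFI6, which overlaps it on the same strand, averaged 7349 counts and rose by 3.16 and 2.91 (log2, SE 0.05 in both). LINC02574 was itself under 0.1 FPKM with control siRNA and was admitted through the siRNA libraries, so its ratio supports nothing further. The few reads of LINC02574 can therefore not be told apart from reads of IFI6. The other interferon-linked member of the list, LINC00513, had log2 fold changes of 0.32 and -0.91 (adjusted p = 0.744 and 0.276, edgeR).

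Of 34 LINC RNAs listed for a reported role, 22 are members. With siRNA.1, 9 rose and 2 fell; with siRNA.2, 8 rose and 2 fell. Over all genes, 15.0% rose and 15.2% fell with siRNA.1, and 15.8% and 15.1% with siRNA.2. These 22 were not matched to all genes by depth. The rises dropped to 5 with siRNA.1 without control replicate 3, and to 5 with siRNA.2 without siRNA.2 replicate 3. Among those reported in squamous or other epithelial cancers, LINC00958 rose from 2.35, 2.12 and 2.45 FPKM to 2.90, 3.82 and 3.23 under siRNA.1, and reached 3.60, 3.54 and 3.36 under siRNA.2. LINC00857 rose with siRNA.1 (0.34, SE 0.12, log2) and had a value of 0.08 (SE 0.12) with siRNA.2; the rise was lost without siRNA.1 replicate 3, control replicate 2 or control replicate 3 (adjusted p = 0.07, 0.0622 and 0.0585, edgeR). LINC01116 had values of 0.24 and 0.42 (adjusted p = 0.573 and 0.26, edgeR). LINC00941, LINC00520, LINC00668, LINC01419 and LINC02487, also on that list, were under the level limit at 0 to 0.0522 FPKM.

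The list of reported roles placed LINC00467 and LINC00472 under DNA damage or p53, a label that was not tested here. LINC00467 rose with both siRNAs, from 0.91, 1.04 and 0.97 FPKM to 1.56, 1.76 and 1.50 and to 1.64, 1.21 and 1.49. LINC00472 averaged 1.00 FPKM in the control libraries, 1.01 under siRNA.1 and 1.09 under siRNA.2 (log2 fold changes -0.02, SE 0.11, and 0.11, SE 0.10). LINC00339 is transcribed into CDC42 on the same strand, and had values of 0.65 and 0.77 (log2, adjusted p = 0.111 and 0.0441, edgeR) while CDC42 fell. That call for siRNA.2 was lost without control replicate 1 or 3 or siRNA.2 replicate 2 or 3 (adjusted p = 0.174, 0.154, 0.0595 and 0.343, edgeR), and with both other filters, DESeq2 and limma.

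A comparison list of 38 long noncoding RNAs with names of their own had 28 measured members. With siRNA.1, 10 rose and 9 fell, and with siRNA.2, 10 rose and 10 fell. The background was 15.0% of all genes rising and 15.2% falling with siRNA.1, and 15.8% and 15.1% with siRNA.2. The list was not matched to all genes by depth. NEAT1 rose by 0.29 with siRNA.1 and fell by 0.37 with siRNA.2 (log2). The RNAs named next moved the same way with both siRNAs. CYTOR, the present name of LINC00152, rose by 0.63 and 0.35 (log2). NRIR, a negative regulator of the interferon response, rose by 2.47 and 2.13. TINCR, needed for epidermal differentiation, fell by 1.66 and 1.52 on the log2 scale, and MIR205HG, a squamous-lineage RNA, fell by 0.73 and 0.57.

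The siRNAs differed from each other in few LINC RNAs. Between them, 11 members changed, or 3.09%, against 12.2% of all genes: 4 were higher with siRNA.2 (background 6.1%) and 7 lower (background 6.07%). Higher with siRNA.2 were LINC02582, LINC02236, LINC02693 and LINC00460. LINC00460, reported in many carcinomas, was at 0.85, 0.65 and 0.66 FPKM with control siRNA, at 0.94, 0.66 and 0.64 with siRNA.1, and at 1.06, 1.43 and 1.31 with siRNA.2, so that the siRNA.2 libraries lay above all others. LINC02236 had the same order, at 0.52, 0.93 and 1.00 FPKM, 0.69, 0.79 and 0.83, and 1.50, 1.48 and 1.15. LINC02693 on chromosome 17, which overlaps 10 other genes, was at 0.62, 0.55 and 0.52 FPKM, 0.90, 0.95 and 1.00, and 1.25, 1.20 and 1.28, with siRNA.1 between the other two.

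Lower with siRNA.2 were LINC01234, LINC02846, LINC01405, LINC01133, LINC00963 and, outside the naming rule, LINC00514 and LINC02057. LINC01234 was at 1.02, 1.27 and 1.18 FPKM with control siRNA, at 2.00, 1.76 and 2.09 with siRNA.1, and at 1.39, 1.29 and 1.35 with siRNA.2. It rose with siRNA.1 (0.73, SE 0.11, adjusted p = 8.96e-10, edgeR), and the difference of siRNA.2 from siRNA.1 was -0.53 (SE 0.11, adjusted p = 3.02e-05, edgeR). LINC01405 and LINC01133 ran alike. LINC01405 was at 0.58, 0.60 and 0.65 FPKM with control siRNA, at 1.23, 1.12 and 1.47 with siRNA.1, and at 0.81, 0.77 and 0.75 with siRNA.2, and LINC01133 at 0.43, 0.51 and 0.35, at 0.96, 0.74 and 0.90, and at 0.59, 0.34 and 0.28. LINC00963 was lower with siRNA.2 than in either other condition, with 1.92, 1.81 and 2.05 FPKM in the control libraries 1.73, 1.80 and 1.86 with siRNA.1, and 1.53, 1.42 and 1.30 with siRNA.2. LINC02846 was at 1.32, 1.54 and 0.84 FPKM, at 1.69, 1.46 and 1.72, and at 0.83, 0.43 and 0.56. Its highest siRNA.2 value, 0.83, lay only just below the lowest control value, 0.84. Its call for siRNA.2 against control was lost without control replicate 1 or 2 or siRNA.2 replicate 2 or 3 (adjusted p = 0.0816, 0.164, 0.137 and 0.0852, edgeR). LINC00514, which GENCODE 44 lists as protein-coding, was at 0.49 to 0.60 FPKM with control siRNA and 0.17 to 0.26 with siRNA.2. LINC02057 averaged 3 counts and had none in the siRNA.2 libraries.

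Several of these differences between the siRNAs rest on single libraries. That of LINC00460 was lost without siRNA.1 replicate 3 or siRNA.2 replicate 2 (adjusted p = 0.0613 and 0.06, edgeR). That of LINC00963 was lost without siRNA.1 replicate 3 or siRNA.2 replicate 3 (adjusted p = 0.0709 and 0.125, edgeR). Those of LINC01133 and LINC01405 were lost without siRNA.2 replicate 3 and siRNA.1 replicate 3 (adjusted p = 0.0783 and 0.0771, edgeR). With limma, none of the differences of LINC02582, LINC02236, LINC02693, LINC00460, LINC00963 and LINC01133 passed under any of the pseudocounts.

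**Figure D4:**
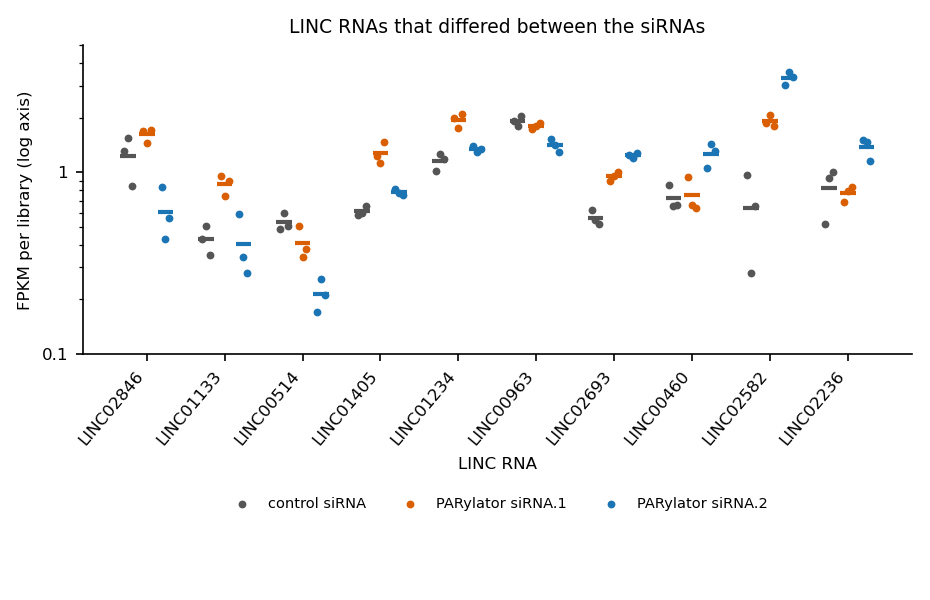
FPKM per library (log axis) of 10 of the 11 LINC RNAs that differed between the siRNAs, ordered from lower to higher with siRNA.2; LINC02057, at 0 with siRNA.2, is not drawn. Points are libraries and bars are means of 3; LINC01234, LINC01405 and LINC01133 stand out with siRNA.1, and LINC00460, LINC02236 and LINC02582 with siRNA.2.

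Changes of LINC RNAs and of their coding neighbours were weakly correlated. For 239 members, a tested protein-coding gene starts within 100000 bases of the member's start; across these genes, Pearson's r between the log2 fold changes of member and neighbour was 0.230 (siRNA.1) and 0.213 (siRNA.2). For the 117 members without one, r was 0.112 and -0.0067. These points share libraries and genes are not replicates, so no test is given. The 239 pairs include LINC02574 with IFI6, whose reads cannot be told apart, and LINC01127 with IL1R2, both with large changes. Whether such pairs carry r was not tested. Within 2000 bases (39 members), r was -0.115 and -0.0528. Which pairs carry the r over the 239 was not tested. Of the 32 members that rose with both siRNAs, 20 have such a neighbour within 100000 bases. Of those neighbours, 7 rose with both and 5 fell with both, beside 15.5% and 15.1% of all protein-coding genes tested. The 7 include IFI6 beside LINC02574 and SGK1 beside LINC01010, and both members were admitted through the siRNA libraries. The part of shared reads or of the selection in the 7 was not tested. Of the 9 members that fell, 6 have a neighbour within 100000 bases, and 3 of these neighbours fell with both while none rose.

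**Figure D5:**
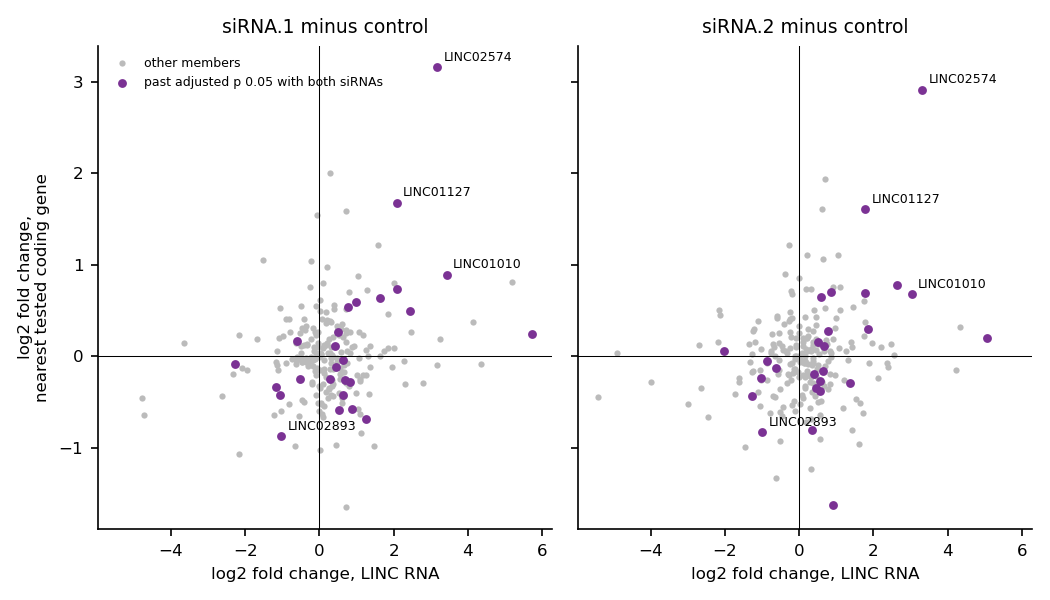
Log2 fold change of each LINC RNA (x axis) and of its nearest tested protein-coding gene within 100000 bases (y axis), for siRNA.1 (left) and siRNA.2 (right) against control siRNA; 239 pairs, with members that passed adjusted p 0.05 with both siRNAs in purple. LINC02574 beside IFI6 and LINC01127 beside IL1R2 lie far up and to the right; most pairs scatter around 0.

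Neighbours of the leading genes went both ways. KLF6, a zinc-finger transcription factor 458631 bases from LINC00702, rose by 0.70 and 0.88 (log2, SE 0.05 in both). H3-3A, a histone H3.3 gene 21739 bases from LINC01703, fell by 0.68 (SE 0.10) and by 0.29 (SE 0.09) on the log2 scale, opposite to that member. PRKCQ beside LINC00707 had values of 0.11 and 0.13 (adjusted p = 0.629 and 0.557, edgeR), and EGFL7 beside LINC01451 had -0.09 and 0.06 (adjusted p = 0.483 and 0.633, edgeR). KPNA2 and HNRNPR, beside LINC00674 and LINC01355, fell with both siRNAs, as did IER5L beside LINC01503. GAS1 beside LINC02893 had -0.87 and -0.83 with SEs of 0.80 and 0.78. NETO1, KCNJ18 and CPN2, nearest to LINC02582, LINC02693 and LINC00887, were under the level limit.

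Promoters were found in RefSeq for 253 members. The interferon-response letters GAAANNGAA were present in 26 of them, or 10.3%, beside 9.86% of 27305 genes in the table. The AP-1 letters TGANTCA were in 11.1% beside 9.37%, the CRE letters TGACGTCA in 1.98% beside 2.25%, and the C/EBP-ATF letters TGATGNAA in 4.74% beside 4.46%. For the E-box CACGTG the shares were 9.88% and 8.77%, for the CCAAT box (CCAAT) 39.1% and 39.7%, and for the ETS letters CGGAAG 21.7% and 22.6%; both strands were searched, matches of different motifs may overlap, and a gene with several promoters counted once if any matched. LINC RNAs as a set thus held each motif about as often as other genes. Of the 19 with a promoter that rose with both siRNAs, 3 held GAAANNGAA, 3 TGANTCA and 3 TGATGNAA. LINC00702 held both GAAANNGAA and TGANTCA, LINC00973 held TGANTCA and LINC02574 held GAAANNGAA, as the capitals show. LINC02574 (GAAANNGAA), LINC01010 (TGANTCA and TGATGNAA) and LINC01619 (TGATGNAA) were admitted through the siRNA libraries, so the selection favoured their rise. The part of the selection in these matches was not tested. Of the 7 that fell, 2 held GAAANNGAA and none TGANTCA. These matches are descriptions of letters and not of binding.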

How the data were processed

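Per the labels and the study's methods, poly(A)+ libraries of TE13 cells (3 with control siRNA, 3 with PARylator siRNA.1, 3 with PARylator siRNA.2) were sequenced on a NovaSeq system, aligned to GRCh38 with STAR and counted per gene with featureCounts; versions, annotation release and strand setting are not given in the sources used here. The authors deposited raw counts and FPKM per library in a single table of 60605 genes; FPKM equals the count divided by the total on genes and by exonic length. Every column of values was used.

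Genes averaging 0.1 FPKM or more (21397) entered a fit of their raw counts in edgeR 4.0.16 (quasi-likelihood, TMM scaling, all 9 libraries, no covariate) in R 4.3.3, with Benjamini-Hochberg adjustment at 0.05; the fit was tested on simulated data. Standard errors were derived from the test statistic. Low counts limit the precision: p-values measure the spread between libraries, which the study calls experimental repeats; whether each came from its own culture is not stated, so the spread may be technical. Libraries of a condition differed beyond counting noise (chi-square of 2.76 to 4.62 per degree of freedom), so none was treated as a duplicate. Counting intervals (exact, 95%) and floors of 3 counts cover counting error only.

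The members and lists were chosen with earlier results of these data known. Named members are the 10 highest by mean FPKM; up to 8 per direction with the largest mean log2 fold change among those past the threshold with both siRNAs, with at least 20 counts and all 6 siRNA libraries on one side of the controls; the 4 per direction with the lowest adjusted p between the siRNAs; the 22 with a listed role; the 2 nearest each side of the limit; and the nearest coding genes. Overlaps and positions follow the deposited coordinates. Of 356 members, 354 were found by identifier in GENCODE 44, 341 as lncRNA and 3 as protein-coding. The rest were typed as transcribed pseudogenes (8 unprocessed, 1 unitary and 1 processed), among them LINC00674. Near-identical copies (97% identity over 500 bases, BLAST 2.17.0) were found for 15 of 354 transcripts compared. Alternatives were other scalings and filters, DESeq2 1.42.0, limma 3.58.1 on log2(FPKM + 0.1), + 1 and + 0.01, stricter thresholds, fits of 2 conditions, a replicate block and leaving out each library.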

Additional observations from a re-analysis of the deposited data

Results flagged for a closer look

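The 11 LINC RNAs that passed the test of siRNA.2 against siRNA.1 responded unequally to both siRNAs, and are given here with their log2 differences (siRNA.2 minus siRNA.1, edgeR quasi-likelihood, adjusted over 21397 genes). Positive differences were found for LINC02582 (0.81, adjusted p = 0.000434), LINC02236 (0.84, adjusted p = 0.00121), LINC00460 (0.77, adjusted p = 0.00561) and LINC02693 (0.41, adjusted p = 0.00403). Negative differences were found for LINC01234 (-0.53, adjusted p = 3.02e-05), LINC02846 (-1.39, adjusted p = 0.00339; -1.395 at full precision), LINC01405 (-0.70, adjusted p = 0.00424), LINC01133 (-1.11, adjusted p = 0.00467), LINC00963 (-0.32, adjusted p = 0.0116), LINC00514 (-0.94, adjusted p = 0.0243) and LINC02057 (-5.25, adjusted p = 0.0352). LINC02057 had 3 counts per library on average and 0 in the siRNA.2 libraries, so its fitted difference depends on the prior count and is no measure of size. Groups of 3 libraries are too small for an outlier test, so each library was instead left out in turn, as given above.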

How the results depend on the processing

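Numbers of changed LINC RNAs stayed within 1.5 times those reported under the other scalings, both other filters, DESeq2 and the fits of 2 conditions. Requiring a log2 fold change of at least 1 left 31 with siRNA.1, 28 with siRNA.2, 19 with both and 3 between the siRNAs. At adjusted p under 0.01 there were 41, 36 and 23 (between the siRNAs, 8). Among the 176 members that overlap no other gene there were 26, 23, 16 and 5, fewer by construction. With limma, the count between the siRNAs was 5, 4 and 6 for pseudocounts of 0.1, 1 and 0.01, and that with both was 27 for a pseudocount of 1; the cause was not tested. Leaving out each library in turn gave 50 to 60 with siRNA.1, 45 to 60 with siRNA.2, 31 to 39 with both and 7 to 12 between the siRNAs; the lowest, 7, came without siRNA.2 replicate 3. Falls ranged from 9 to 15 with siRNA.1, 10 to 19 with siRNA.2 and 5 to 11 with both.

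The replicate numbers did not pair the libraries: correlations of deviations between same-numbered libraries ran from -0.101 to 0.0357, and 1 of 9 libraries correlated best with its own number. With the replicate block, 54, 58, 40 and 10 LINC RNAs changed (siRNA.1, siRNA.2, both, between). Of the 67 called values of named members, 39 kept the call under every alternative that gave a value, and none reversed; limma lost 22, 17 and 24 of them for pseudocounts of 0.1, 1 and 0.01, and DESeq2 lost 2. The scarce members rest on few reads: 147 of 356 averaged under 10 counts.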
